A study of Mus musculus with 8 samples.

Results

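Transcripts of 6 transcription factors of the dental epithelium, Pitx1, Trp63, Sox2, Sp6, Tbx1 and Isl1, were followed in molar tooth germs of mouse embryos in which Hedgehog signalling had been challenged 24 hours earlier. These are 6 of the 18193 genes that the platform annotation names alone on a probe set. Every probe set that names exactly 1 of them was used, which are 14 of the 34945 single-gene probe sets on the array and 14 of 45101 in all. Pitx1 and Isl1 had 2 probe sets each, Trp63 and Sp6 had 4 each, and Sox2 and Tbx1 had 1 each. Pregnant ICR mice, an outbred stock, were injected once into the peritoneum at embryonic day 14, and the mandibular molar germs of their embryos were taken 24 hours later. The 4 groups, of 2 arrays each, received the Shh-binding antibody 5E1 (10 mg/kg), the antibody 40-1a against β-galactosidase (10 mg/kg), the Smo antagonist cyclopamine (10 mg/kg) or PBS (1 ml). Embryos were exposed through the mother, every group had an injection, and the labels do not give a vehicle for cyclopamine or the number of embryos or litters behind an RNA. The sample titles call both arrays of each group biological replicates, without saying whether they came from different litters. Each p-value below thus rests on how far such replicates differed, and a technical part of that variation cannot be separated.

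The members belong to unrelated families that act in the same tissue layer. Pitx1 is a homeodomain factor of the mandibular arch and its teeth. Trp63 encodes p63, the p53 relative that stratified epithelia and all ectodermal appendages need. Sox2, an HMG-box factor, marks the dental lamina and the epithelial stem cells of the incisor. Sp6, also called epiprofin, is a zinc finger factor of the inner dental epithelium whose loss in mice gives extra teeth without enamel. Tbx1, a T-box factor, is expressed in dental epithelium and also in the core mesoderm that forms head muscle. Isl1, a LIM-homeodomain factor, is known from the incisor epithelium and from motor and sensory neurons. The dental epithelium is also where Shh is made, and both the epithelium and the mesenchyme under it respond to Shh.

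On the assembly GRCm38.p6 the RefSeq gene table places Sox2 at chr3:34649995-34652461, inside the long noncoding gene Sox2ot (chr3:34560381-34677993), Sp6 at chr11:97013569-97024739 and Pitx1 at chr13:55825044-55836190. Isl1 lies on the same chromosome as Pitx1 (chr13:116298270-116309688). Tbx1 (chr16:18580979-18590671) and Trp63 (chr16:25683763-25892088) share a chromosome too. RefSeq promoters of this build were found for 3 of 6 members, with 4 start sites. The 250 bases before each start are shown for every member with a promoter found, so that the sequences can be set beside the values below. Over the arrays the log2 range was 1.22 for Sox2, 1.19 for Tbx1 and 1.79 for Isl1, which was near the detection limit. Capitals mark 3 motifs, searched on both strands: the GC box GGGCGG bound by Sp factors, the core TAATCC bound by Pitx-type homeodomains, and the CCAAT box.
Sox2, chr3:34649745-34649994, plus strand: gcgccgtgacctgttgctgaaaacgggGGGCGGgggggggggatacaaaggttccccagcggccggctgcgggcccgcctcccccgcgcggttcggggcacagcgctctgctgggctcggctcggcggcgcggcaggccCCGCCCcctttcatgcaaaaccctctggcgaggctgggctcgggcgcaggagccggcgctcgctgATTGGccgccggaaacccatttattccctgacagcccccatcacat
Tbx1, outer start, chr16:18590672-18590921, minus strand: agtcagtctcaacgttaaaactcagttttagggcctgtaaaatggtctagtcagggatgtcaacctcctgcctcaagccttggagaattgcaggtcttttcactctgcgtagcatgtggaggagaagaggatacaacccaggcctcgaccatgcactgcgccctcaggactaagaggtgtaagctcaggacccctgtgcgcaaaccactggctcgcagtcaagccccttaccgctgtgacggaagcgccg
Tbx1, inner start, chr16:18588900-18589149, minus strand: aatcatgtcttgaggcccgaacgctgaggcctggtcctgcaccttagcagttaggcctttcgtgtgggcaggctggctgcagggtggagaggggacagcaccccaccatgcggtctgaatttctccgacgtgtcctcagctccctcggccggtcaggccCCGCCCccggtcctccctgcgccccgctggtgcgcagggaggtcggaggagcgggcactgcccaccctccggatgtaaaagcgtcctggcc
Isl1, chr13:116309689-116309938, minus strand: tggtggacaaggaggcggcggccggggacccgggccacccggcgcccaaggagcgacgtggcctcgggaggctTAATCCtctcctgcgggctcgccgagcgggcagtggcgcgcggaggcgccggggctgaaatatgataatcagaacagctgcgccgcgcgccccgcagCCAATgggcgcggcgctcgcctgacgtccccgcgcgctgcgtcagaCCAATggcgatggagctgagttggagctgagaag
The Sox2 sequence held 2 GC boxes, 223 and 111 bases before the start, and 1 CCAAT box at 46. The inner Tbx1 promoter held 1 GC box, at 91 bases, and the outer one held none of the motifs. Isl1 had 2 CCAAT boxes, at 80 and 34 bases, and 1 TAATCC core at 177. Of all 32851 promoters of this length in the table, 32.7% held a GC box, 33.8% a CCAAT box and 6.25% the TAATCC core. The Gli consensus TGGGTGGTC was in 0 of these 4 sequences and in 0.225% of all promoters. No motif overlapped another. G and C made up 72.0% of the Sox2, 71.2% of the Isl1, 67.2% of the inner and 54.4% of the outer Tbx1 sequence, against a median of 52.4%.

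The Hedgehog receptor and feedback gene Ptch1 read 2122 and 1552.5 after 5E1 and 11322 and 7180.1 after 40-1a. After cyclopamine it read 9683 and 5793, and after PBS 9611 and 8474, so that the cyclopamine arrays reached both above and below the PBS arrays. The arrays did not sort by injection. Clustered over the 13008 genes tested, they fell into cluster 1 (5E1 1, 40-1a 1 and PBS 1, where the number is the replicate), cluster 2 (5E1 2, 40-1a 2 and cyclopamine 2) and cluster 3 (cyclopamine 1 and PBS 2). Of 20 general epithelium markers such as Cdh1, Epcam and Krt14, 19 were measured and all 19 were higher in cluster 2 than in cluster 1, by a median of 0.82 on the log2 scale. Their summed signal ran from 70149 to 71562 in cluster 1, from 120250 to 123790 in cluster 2 and from 83051 to 91250 in cluster 3. All 19 skeletal muscle markers tested were higher in cluster 2 as well (median 1.59), as were all 18 of suprabasal oral epithelium (1.27), while 15 of 16 dental mesenchyme markers were lower (median -0.87). In whole germs, fewer cells of a type and less RNA per cell cannot be told apart. Cyclopamine 1 stood apart in its control probe sets: the 5′ over 3′ signal ratio of the Dap, Phe and Thr spike-in RNAs was 0.165, 0.216 and 0.196 there, and between 0.386 and 0.699 on the other 7 arrays.

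**Figure D1:**
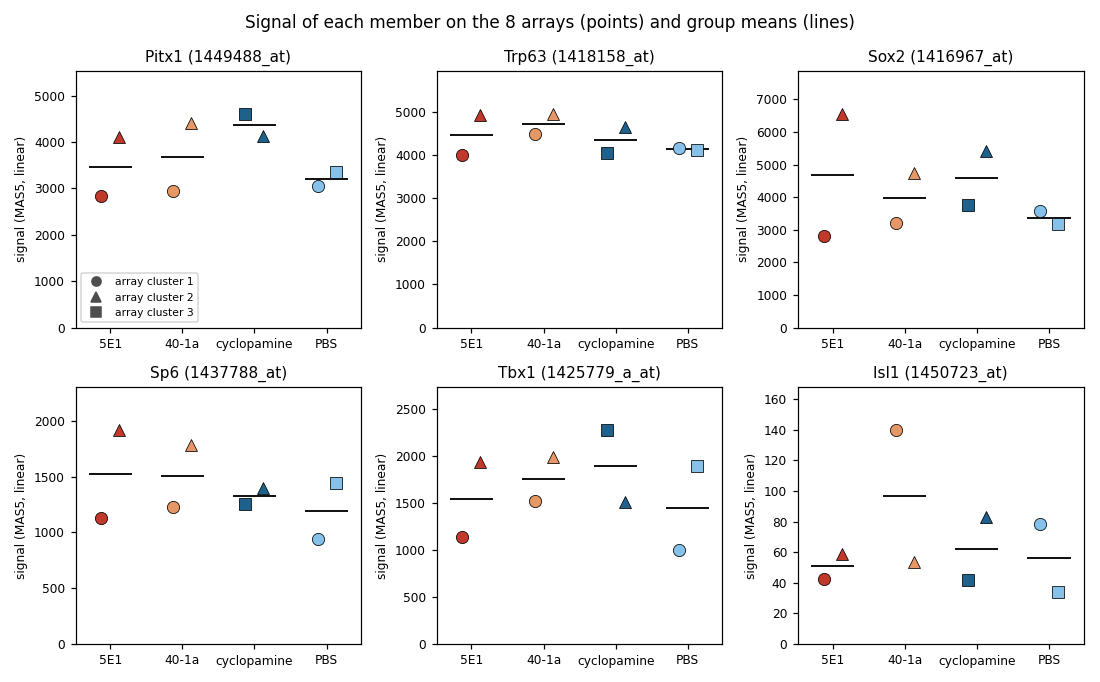
Signal (MAS5, linear scale from 0) of each member on the 8 arrays, from the probe set with its highest mean, by injection group. Points are arrays, with the shape giving the array cluster, and lines are group means. Groups that follow each other in the order of mean signal overlap in every panel. Cyclopamine and PBS, drawn side by side, do not overlap for Pitx1 and Sox2. The triangles of cluster 2 lie above the circles of cluster 1 for Pitx1, Trp63, Sox2 and Sp6.

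Pitx1 was measured with a signal of 2835 and 4105 on the 5E1 arrays, 2951 and 4418 on the 40-1a arrays, 4615 and 4133 after cyclopamine, and 3063 and 3354 after PBS (probe set 1449488_at). The low arrays were 5E1 1, 40-1a 1 and the PBS pair, and the cyclopamine arrays were both high. Group means fell in the order cyclopamine (4374 ± 341, SD, n = 2), 40-1a (3684 ± 1037), 5E1 (3470.4 ± 898) and PBS (3209 ± 205). No pair of neighbours in that order was separated, since their arrays overlapped.

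The other Pitx1 probe set, 1419514_at, set the arrays of cluster 1 apart by a wider step. Its signal was 768 and 2208 after 5E1, 835 and 2417 after 40-1a, 2139.8 and 2402 after cyclopamine, and 693 and 2018 after PBS. The 3 arrays of cluster 1 lay between 693 and 835 and the other 5 between 2018 and 2417, with no array in between. Replicate 2 exceeded replicate 1 by 1.51 (5E1), 1.52 (40-1a) and 1.53 (PBS) on the log2 scale with this probe set, against 0.53, 0.58 and 0.13 with 1449488_at. The log2 values of both probe sets correlated with Pearson's r of 0.89 over the 8 arrays. Which part of the transcript each of them reads was not analysed here.

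Trp63 was the steadiest member with its best measured probe set. This probe set, 1418158_at, gave 4005 and 4927 after 5E1, 4490.3 and 4969 after 40-1a, 4056 and 4657 after cyclopamine, and 4161 and 4114 after PBS. The highest array exceeded the lowest by 0.31 on the log2 scale, while the median range over all genes tested was 0.70. The order of means was 40-1a (4729.7 ± 339), 5E1 (4466 ± 652), cyclopamine (4356 ± 425) and PBS (4137 ± 33.5), and again all neighbours overlapped.

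A pair of other Trp63 probe sets was low on 1 array. The probe set 1451876_a_at read 101 on cyclopamine 1 and between 551 and 803 on the other 7 arrays. With 1452027_a_at cyclopamine 1 was at 103 and the other 7 arrays at 407 to 697. Cyclopamine 1 was thus 6.11-fold and 5.01-fold below the median of the others with these probe sets, and 1.11-fold below it with 1418158_at. The suffix _a_at marks probe sets that match several transcripts of a gene. The fourth, 1459581_at, ran the other way between clusters, at 204, 348 and 222 on the arrays of cluster 1 and 101, 120 and 152 on those of cluster 2. Its r with 1418158_at over the 8 arrays was -0.36, whereas both _a_at probe sets reached 0.93 and 0.82 with it over the 7 arrays without cyclopamine 1.

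Sp6 showed the same split. Its best measured probe set, 1437788_at, gave 1131 and 1919 after 5E1, 1227 and 1784 after 40-1a, 1254 and 1394 after cyclopamine, and 938 and 1442 after PBS. Replicate 2 was higher than replicate 1 in all 4 groups, by 0.15 to 0.76 on the log2 scale. Means ran from 1525 ± 558 (5E1) through 1505 ± 393 (40-1a) and 1324 ± 98.6 (cyclopamine) to 1190 ± 357 (PBS), with overlap at each step.

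A further pair of Sp6 probe sets was low on cyclopamine 1. With 1427787_at the signal there was 244 against 466 to 1382 elsewhere, and with 1442342_at it was 88.9 against 329.5 to 540.1. On the other 7 arrays both followed 1437788_at, with r of 0.94 and 0.80. The fourth probe set, 1427786_at, lay between 3.58 and 33.1 and under the filter level of 60.3. Of the 12 member probe sets past the filter, 3 were over 2-fold below the lowest other array on cyclopamine 1, as were 3.48% of all 23594 probe sets past the filter, and each of the other 7 arrays had 0.170% to 0.492% of such probe sets and 0 of these 12. The 3′ control probe set of Tfrc, the transferrin receptor, read 42.6 there against 310.4 to 462.7 elsewhere. Whether the control signals account for the low Trp63 and Sp6 values on that array was not tested.

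**Figure D2:**
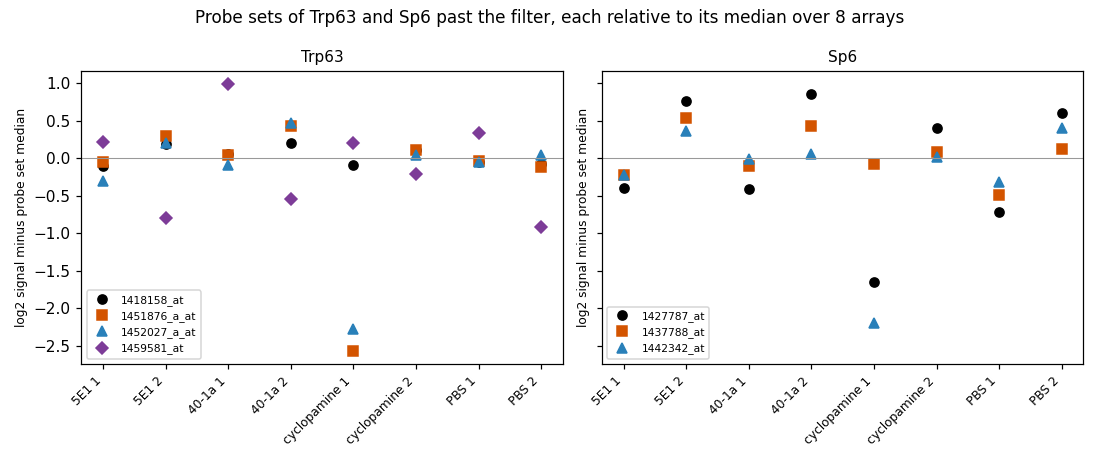
Log2 signal of the Trp63 (left) and Sp6 (right) probe sets past the filter, each minus its own median over the 8 arrays, for every array. On cyclopamine 1 the Trp63 probe sets 1451876_a_at and 1452027_a_at and the Sp6 probe sets 1427787_at and 1442342_at are far below their values elsewhere, while 1418158_at and 1437788_at stay near 0.

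Sox2 had the largest spread of the well measured members. Its signal was 2807 and 6565 on the 5E1 arrays, which were the lowest and the highest of all 8. After 40-1a it was 3217 and 4757, after cyclopamine 3758 and 5421, and after PBS 3571 and 3180.4. Every array of cluster 2 lay above every array of the other clusters. The order of means was 5E1 (4686 ± 2657), cyclopamine (4589.7 ± 1176), 40-1a (3987 ± 1089) and PBS (3376 ± 276), with all neighbours overlapping. The surrounding Sox2ot, read by 1 probe set, had signals of 29.8 to 68.1, near or below the filter level.

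Tbx1 was highest on cyclopamine 1, the array with the low spike-in ratios, as was Pitx1 with 1449488_at (4615). The signal was 1141 and 1934 after 5E1, 1521 and 1994 after 40-1a, 2279.6 and 1508 after cyclopamine, and 997 and 1892 after PBS. Here the 2 arrays of cluster 3 (2279.6 and 1892) stood near or above cluster 2 (1508 to 1994), unlike the epithelium markers, whose sum in cluster 3 lay below that in cluster 2. Means were 1894 ± 545 (cyclopamine), 1757 ± 334 (40-1a), 1537 ± 561 (5E1) and 1444 ± 633 (PBS), and neighbours overlapped.

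Isl1 was hardly measurable in these germs. The probe set 1450723_at read 42.5 and 59.1 after 5E1, 140.1 and 53.7 after 40-1a, 41.5 and 83.0 after cyclopamine, and 78.4 and 34.1 after PBS. Its mean log2 value of 6.13 was just above the filter level of 6.12, and 5 of the 8 arrays were below a signal of 60.3. The second probe set, 1422720_at, ran from 17.9 to 114.7 and did not pass. With 1450723_at only 40-1a 1 was above 100, and with 1422720_at only cyclopamine 2. Of 16 neuron and Schwann cell markers listed, 10 were tested, with Pou4f1 and Elavl4 below the filter. Their summed signal was lowest on 40-1a 1 (2400.1) and highest on cyclopamine 2 (3912). Erbb3 alone gave 930 and 1989 of these sums, and it was higher in cluster 2 than in cluster 1 by 0.98 on the log2 scale. The mean log2 value of the 10 markers was 7.51 on 40-1a 1, and it ran from 7.09 on cyclopamine 1 to 7.95 on cyclopamine 2.

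The comparison of 5E1 with 40-1a asks what binding of Shh did, with the antibody injection held equal. None of the members passed the test. Trp63 was at a log2 difference of -0.09 (SE 0.16, 95% interval -0.45 to 0.27), Pitx1 at -0.08 (SE 0.24, -0.64 to 0.48) and Sp6 at -0.01 (SE 0.32, -0.74 to 0.73). Sox2 was at 0.13 (SE 0.39, -0.77 to 1.04), Tbx1 at -0.23 (SE 0.38, -1.10 to 0.65) and Isl1 at -0.71 (SE 0.58, -2.04 to 0.63). The arrays overlapped for 6 of 6 members, where 19.4% of all genes did not overlap (8.66% higher and 10.8% lower). At an adjusted p of 0.05 limma passed 0 of 13008 genes (0%), and the members' adjusted p was 1.00. Unadjusted p was below 0.05 for 159 of the 13008 genes, 0 of them members. In an alternative fit with the array cluster as a block, 615 genes were below it. Ptch1, at -2.31 (SE 0.30), did not pass the main fit either (adjusted p = 0.969, limma). Not passing thus does not show that a member was unchanged. Within cluster 1 the difference between both antibody arrays was -0.06 for Pitx1, -0.16 for Trp63, -0.20 for Sox2, -0.12 for Sp6 and -0.41 for Tbx1, and within cluster 2 it was -0.11, -0.01, 0.46, 0.11 and -0.04. For Isl1 it was -1.53 and 0.12, the first of which rests on 40-1a 1. Sox2, Sp6 and Isl1 thus differed in sign between the clusters. With 1 array left out the sign turned for 5 of 6 members, the exception being Isl1 (-1.33 to -0.08).

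Cyclopamine against PBS concerns an antagonist that acts further down the pathway, at Smo. In this comparison Ptch1 was at -0.27 and the other Hedgehog feedback genes, Gli1 and Hhip, were at 0.08 and -0.63. The arrays of all 3 overlapped, and whether the pathway was blocked in these germs was not tested. All 6 members had positive differences, from 0.07 to 0.45 with a median of 0.30 (0.02 over all genes), and none passed the test. Pitx1 was at 0.45 (SE 0.24, 95% interval -0.11 to 1.00), Tbx1 at 0.43 (SE 0.38, -0.45 to 1.31) and Sox2 at 0.42 (SE 0.39, -0.48 to 1.32). Sp6 was at 0.18 (SE 0.32, -0.56 to 0.92), Isl1 at 0.15 (SE 0.58, -1.18 to 1.49) and Trp63 at 0.07 (SE 0.16, -0.29 to 0.43). Pitx1 and Sox2 were higher without overlap, 2 of 6 members, as were 17.8% of all genes, while 14.4% were lower and 32.2% separate in either direction. By limma 0 genes (0%) passed, 205 had unadjusted p below 0.05, and the members' adjusted p lay at 0.983 or 0.984. The general epithelium markers moved alongside, with 19 of 19 higher and a median of 0.45. So did skeletal muscle markers (18 of 19 higher, median 0.99) and suprabasal markers (18 of 18, 0.52), while 14 of 16 dental mesenchyme markers were lower (-0.34). The part of these tissues in the members' differences was not tested. With the mean of the general epithelium markers as a covariate Sp6 was at -0.11 and Trp63 at -0.03. The choice of probe set turned the sign for the same 2 genes: cyclopamine minus PBS was -1.10 and -1.07 with the Trp63 _a_at probe sets, -0.56 with 1427787_at and -1.09 with 1442342_at of Sp6. With cyclopamine 2 alone against PBS these 4 values were 0.19, 0.05, 0.44 and -0.03. Within cluster 3, the difference between cyclopamine 1 and PBS 2 was 0.46 for Pitx1, 0.27 for Tbx1, 0.24 for Sox2, -0.02 for Trp63 and -0.20 for Sp6.

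**Figure D3:**
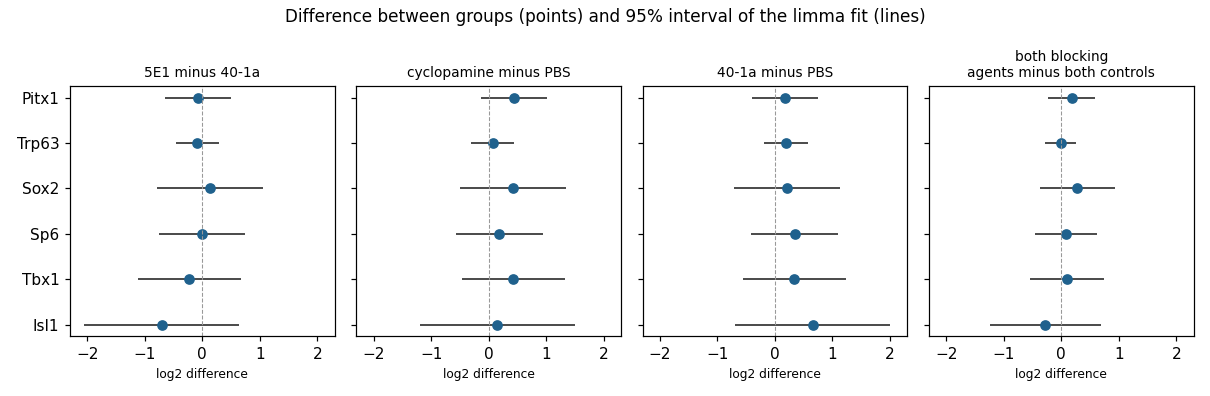
Log2 difference between groups for the 6 members (points) with the 95% interval of the limma fit over all 8 arrays (lines), in 4 comparisons. All 24 intervals include 0, and they are narrowest for Trp63 (1418158_at) and widest for Isl1.

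Between the control injections, 40-1a minus PBS, all 6 members again had positive values, from 0.17 (Pitx1) to 0.66 (Isl1), with a median of 0.28. Without 40-1a 1 the value of Isl1 was 0.03, and without PBS 1 that of Sp6 was 0.04 and that of Tbx1 -0.12. Of the general epithelium markers 18 of 19 were higher too (median 0.28), as were 18 of 18 suprabasal markers (0.32), while 15 of 16 dental mesenchyme markers were lower (-0.38), and their part in the members' values was not tested. Trp63 (0.19, SE 0.16) was the 1 member of 6 without overlap, on the side where 9.7% of all genes had none (10.8% on the lower side, 20.5% on either). By limma 0 genes (0%) passed, 88 had unadjusted p below 0.05, and the members' adjusted p was 1.00. The PBS arrays serve in this comparison and in that of cyclopamine.

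With 5E1 and cyclopamine set together against 40-1a and PBS, the differences were 0.28 for Sox2 (SE 0.28), 0.18 for Pitx1 (SE 0.17), 0.10 for Tbx1 (SE 0.27), 0.09 for Sp6 (SE 0.23), -0.01 for Trp63 (SE 0.11) and -0.28 for Isl1 (SE 0.41). The interval of Trp63 with 1418158_at, from -0.26 to 0.25, was the tightest bound on any member. The other Trp63 probe sets, in a fit of every probe set, had wider intervals. These were -1.72 to 0.52 (1451876_a_at), -1.67 to 0.36 (1452027_a_at) and -1.09 to 0.86 (1459581_at). No member was without overlap, as against 1.37% of all genes (0.615% higher and 0.753% lower). By limma 0 genes (0%) passed, and 159 had unadjusted p below 0.05. The antibody effect minus the cyclopamine effect was negative for all 6 members, from -0.16 (Trp63) to -0.86 (Isl1), and did not pass for any of them (adjusted p = 1.00, limma; 0 of 13008 genes, 0%, and 187 with unadjusted p below 0.05). Leaving out 1 array moved Isl1 to between -1.48 (without 40-1a 2) and -0.24 (without 40-1a 1), and Trp63 to between -0.31 (without 5E1 2) and -0.01 (without 5E1 1). The general epithelium markers had a median of -0.33 in the same contrast.

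As in the median gene, most of the variation of the members lay between replicates. The design, with 4 residual degrees of freedom over 8 arrays, puts a large share there even without any group effect. The share of the sum of squares within injection groups was 83.8% for Sox2, 80.2% for Tbx1, 79.9% for Sp6, 73.7% for Isl1, 66.7% for Trp63 and 59.9% for Pitx1, and 69.1% in the median gene. The residual SD on the log2 scale was 0.51 for Sox2, larger than in 86.4% of genes, 0.49 for Tbx1 (84.7%), 0.40 for Sp6 (75.6%) and 0.29 for Pitx1 (57.7%), but 0.14 for Trp63 (16.5%). Pitx1, Trp63, Sox2 and Sp6 were higher in cluster 2 than in cluster 1 without overlap, 4 of 6 members, as were 24.5% of all genes. These clusters were made from the same values, so this is a description only. On average cluster 2 exceeded cluster 1 by 1.74-fold for Sox2, 1.54-fold for Sp6, 1.49-fold for Tbx1, 1.43-fold for Pitx1 (3.04-fold with 1419514_at) and 1.15-fold for Trp63.

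The members were then set against the mean log2 value of the 19 epithelium markers on each array, which ran from 10.50 on 40-1a 1 to 11.60 on 5E1 2. Pearson's r over the 8 arrays, which share their RNA and scaling, was 0.92 for Sox2, 0.85 for Sp6, 0.79 for Pitx1, 0.79 for Trp63, 0.55 for Tbx1 and -0.16 for Isl1. After subtraction of that mean the range over the arrays shrank from 1.22 to 0.46 for Sox2 and from 1.03 to 0.76 for Sp6. It hardly changed for Tbx1 (1.19 and 1.13), and it grew for Pitx1 (0.70 to 0.86), Trp63 (0.31 to 0.96) and Isl1 (1.79 to 2.23). The marker mean itself had a range of 1.10, so much wider than that of Trp63 with 1418158_at that the subtraction had to widen the latter. With the other Trp63 probe sets past the filter the highest array exceeded the lowest 7.96-fold, 6.74-fold and 3.75-fold, against 1.24-fold with 1418158_at. The first and second of these folds, from the _a_at probe sets, rest on cyclopamine 1. The other arrays ran from 551 to 803 and from 407 to 697 with them.

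**Figure D4:**
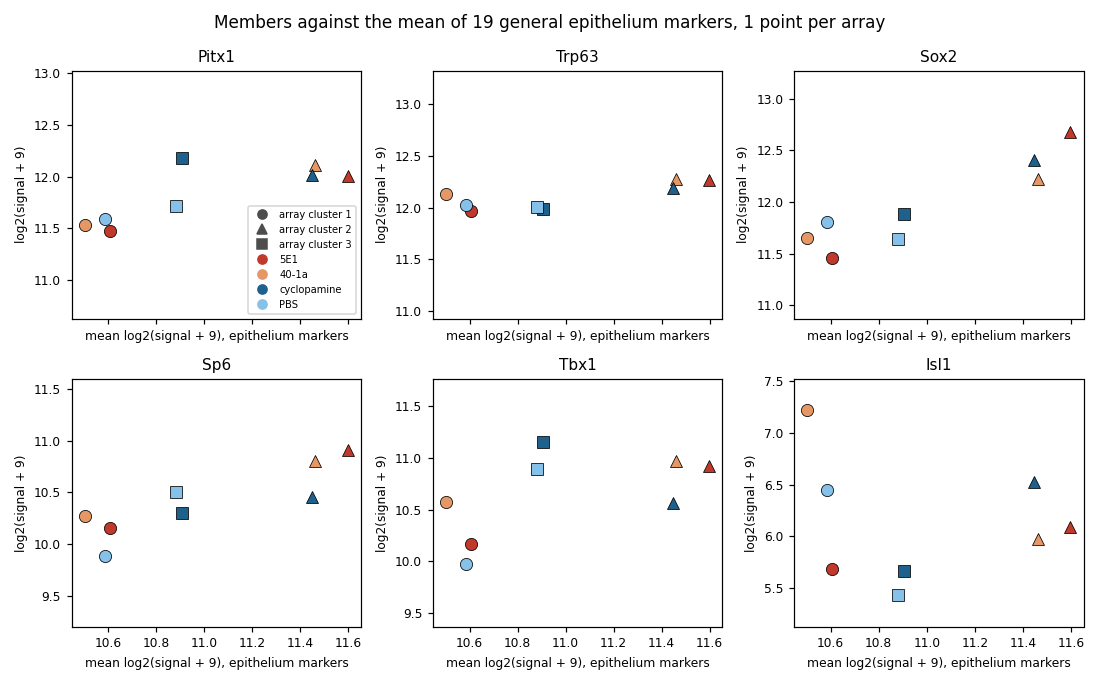
Log2(signal + 9) of each member against the mean of the 19 general epithelium markers, 1 point per array, with colours for injection groups and shapes for array clusters. All panels span the same range of log2 values, and Sox2 rises most evenly with the markers, Trp63 (1418158_at) is nearly flat and Tbx1 is highest on cyclopamine 1.

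By Pearson's r over the 8 arrays, the genes most like Pitx1 were Afdn (0.995), which encodes the junction protein afadin, Abcd4 (0.99) and Slc25a39 (0.99). Those most like Sox2 were Gstm2, Kcnj15 and Pcbd2 (0.98 each), and those most like Sp6 were Castor1 (0.98), Alk (0.97) and Gart (0.97). Oxa1l, Zmym3 and Gucd1 (0.97 each) were nearest to Tbx1, Baiap2l1 (0.96), Ccdc3 (0.95) and Sorcs2 (0.94) to Trp63, and Ago3 (0.95), Wdcp (0.93) and Smpd5 (0.93) to Isl1. As many as 339 genes had r over 0.9 with Pitx1, 143 with Tbx1, 110 with Sox2, 80 with Sp6, 22 with Trp63 and 7 with Isl1. Between members r was highest for Trp63 and Sox2 (0.82) and lowest for Tbx1 and Isl1 (-0.35).

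Other transcription factors of epithelia, 19 tested of 24 listed, were counted next. After 5E1, 10 were higher and 9 lower (median 0.04), and after cyclopamine 12 were higher and 7 lower (median 0.22), with 0 called in either. Values with the smallest p were Msx2, a homeobox gene of the enamel knot (-0.47, SE 0.23, cyclopamine minus PBS), Lef1, a partner of β-catenin (-0.71, SE 0.39), and the epithelial factor Grhl2 (0.33, SE 0.18), and for 5E1 the homeobox gene Dlx3 (-0.64, SE 0.38). Between clusters 15 of 19 were higher in cluster 2, among them Klf5 by 1.57, Ovol1 by 1.49 and Grhl3 by 1.42, while Lef1 was at -0.96. Klf5, Ovol1, Grhl3 and the genes Itgb4, Sox21, Lhx6 and Lhx8 below were chosen after their values were seen.

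Known p63 targets, 13 tested of 14 and in part, as with Krt5, also epithelium markers, were higher in 5 cases after 5E1 (median -0.0024) and in 11 after cyclopamine (median 0.50), with 0 called. In the latter 9 of 13 did not overlap on the higher side, against the 17.8% of all genes given above. The same held for 10 of 19 general epithelium markers and 7 of 18 suprabasal markers, while the arrays of Trp63 itself overlapped. Krt5, the basal keratin, had signals of 19810 and 27069 after cyclopamine and 16654 and 17685 after PBS (0.43, SE 0.24), and Col17a1, a hemidesmosome collagen, was at 0.86 (SE 0.52). In cluster 2 Col17a1 was higher than in cluster 1 by 1.33 and Itgb4 by 1.51, while Trp63 itself was higher by 0.20. Dst, a plakin of hemidesmosomes, had the smallest p in the contrast between both agents (-1.14, SE 0.41, p unadjusted 0.025, adjusted p = 1.00, limma).

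Ameloblast genes, in whose activation Sp6 has a part, were 6 tested of 10, since Amtn, Enam, Klk4 and Mmp20 were below the filter. After 5E1, 2 were higher and 4 lower. Odam read 1379 and 1167 after 5E1 and 537 and 507 after 40-1a (1.27, SE 0.26), and Amelx, the amelogenin gene, 34.9 and 49.2 against 110.4 and 78.9 (-1.02, SE 0.44). Neither passed over all genes, and both Amelx signals after 5E1 were below the filter level of 60.3. Stem cell genes of the dental epithelium, all 7 of which were tested, were higher in 4 cases after 5E1 and in 2 after cyclopamine, with medians of 0.10 and -0.10. Lgr5 was at 0.24 and -0.52, and Sox21, a relative of Sox2, was at 0.58 and 0.10 and higher in cluster 2 by 1.62.

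Of relatives of the members, 13 of 20 listed were tested, and 6 were higher after 5E1 and 7 after cyclopamine, with 0 called. Isl2, the paralog of Isl1, read 273 and 169.8 after 5E1 and 103.7 and 108 after 40-1a (0.97, SE 0.38, unadjusted p = 0.035, adjusted p = 1.00, limma). Trp73 was at 0.63 (SE 0.27) after cyclopamine, Tbx18 at 0.74 (SE 0.36) over both agents and the Wnt-responsive Sp5 at 0.70 (SE 0.39) after 5E1. The LIM-homeobox genes Lhx6 and Lhx8, which are markers of dental mesenchyme, were both at -1.56 in cluster 2 relative to cluster 1.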

How the data were processed

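Whole mandibular molar germs were profiled on 8 one-colour arrays. Intensities on a linear scale were deposited by the authors as MAS5 signals, per the submitters' processing notes. Each array's trimmed mean was near 500 in the table. Here log2(signal + 9) was taken, the probe set with the highest mean stood for a gene, and genes under the 40th percentile of probe sets (log2 6.12) were left out, which kept 13008. Limma 3.58.1 in R 4.3.3 (lmFit, contrasts.fit, eBayes with trend, Benjamini-Hochberg over all genes, threshold 0.05) was fitted over all 8 arrays, with 4 residual degrees of freedom, and tested on simulated data. With 2 arrays a group their number limits the precision. The members and lists were chosen with earlier results of these data known. Named genes of a list were those with the smallest p in any comparison, up to 4 a list. Alternatives were other pseudocounts, filters, scalings, probe set rules, blocks, an epithelium covariate, and leaving out each array. The replicate numbers are not said to pair arrays and were a block only in an alternative. Levels of different probe sets were not compared.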

Additional observations from a re-analysis of the deposited data

How the results depend on the processing

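Of 536 recomputed member differences (30 differences under the alternatives with 1 value per gene), 485 kept their sign and 51 turned it. The fit of every probe set is not in this count, and Isl1 had no value with the filter at the 60th percentile or the mean of probe sets. With no array left out, the smallest adjusted p was 0.702 (limma), so no member was called. For 5E1 minus 40-1a, the genes called over all genes numbered 3 with the array cluster as a block, 1 with the epithelium covariate and 1 with the replicate block, against 0. For the antibody effect minus the cyclopamine effect they numbered 3 with the cluster block and 1 with the covariate, and for both agents 2 with the cluster block and 1 with the replicate block. Deviations of equally numbered arrays correlated with r from 0.323 to 0.591 in 5 of 6 pairs of groups and with r of 0.0016 for cyclopamine and PBS. With no source for a pairing, the replicate block stayed an alternative, and it called 0 members. With the mean of all probe sets, cyclopamine minus PBS was -0.46 for Trp63 and -0.51 for Sp6, 5E1 minus 40-1a was 0.03 for Sp6, both agents were at -0.24 for Sp6, and the difference of effects was 0.23 for Trp63 and 0.54 for Sp6. Median centring put 5E1 minus 40-1a at 0.01 for Sp6. With the cluster block, cyclopamine minus PBS was -0.04 for Trp63 and -0.15 for Sp6, both agents -0.08 for Sp6 and -0.03 for Tbx1, 40-1a minus PBS -0.16 for Sox2, and the difference of effects 0.11 for Sox2 and 0.15 for Sp6. With the covariate the values were -0.03 (Trp63) and -0.11 (Sp6) for cyclopamine, -0.10 (Sp6) and -0.03 (Tbx1) for both agents, -0.002 (Sox2) for 40-1a minus PBS and 0.03 (Sp6) for the difference of effects. The cause of these turns was not tested.

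With each array left out in turn, 5E1 minus 40-1a ranged from -0.37 to 0.21 for Pitx1, -0.24 to 0.06 for Trp63, -0.48 to 0.75 for Sox2, -0.39 to 0.37 for Sp6 and -0.61 to 0.15 for Tbx1. Cyclopamine minus PBS ranged from -0.03 to 0.17 for Trp63, -0.12 to 0.49 for Sp6, -0.03 to 0.89 for Tbx1 and -0.36 to 0.66 for Isl1, and stayed positive for Pitx1 (0.37 to 0.52) and Sox2 (0.16 to 0.68). 40-1a minus PBS ranged from -0.12 to 0.46 for Pitx1, -0.07 to 0.50 for Sox2, -0.12 to 0.80 for Tbx1, 0.04 to 0.65 for Sp6 and 0.03 to 1.28 for Isl1. Both agents together ranged from -0.08 to 0.07 for Trp63, -0.03 to 0.58 for Sox2, -0.10 to 0.28 for Sp6, -0.13 to 0.33 for Tbx1 and -0.59 to 0.04 for Isl1, and the difference of effects from -0.90 to 0.32 for Sox2, -0.57 to 0.19 for Sp6, -0.82 to -0.24 for Pitx1, -0.31 to -0.01 for Trp63, -1.12 to -0.20 for Tbx1 and -1.48 to -0.24 for Isl1. A group reduced to 1 array was assumed to vary like the others. Signal near the detection limit leaves Isl1 the least certain member.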
